A study of Mus musculus with 2 samples.

Results

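The genes described here are 10 receptor genes that were read in dendritic cells and their neighbours of the mouse spleen: the colony-stimulating factor receptor genes Csf1r, Csf2ra, Csf2rb and Csf3r, the Fcγ receptor genes Fcgr1, Fcgr2b, Fcgr3 and Fcgr4, the signaling chain gene Fcer1g and the neonatal Fc receptor gene Fcgrt. They were chosen by name, as 10 of the 17751 genes counted in both libraries, and each was followed in every cluster of the cell map and in both genotypes. Csf2rb2, the paralog of Csf2rb that lies beside it in the mouse genome, is given with its neighbour and is not counted among the 10. The study sequenced the transcripts and a panel of antibody tags of single splenic cells from WT mice and from mice that lack the transcription factor Batf3, on which the cDC1 lineage of conventional dendritic cells depends. Both groups were C57BL/6 females of 8 weeks with no treatment, and each genotype was 1 library made from the pooled spleens of 6 mice, in an experiment that was run once. The WT mice came from the Animal Resources Centre, and the Batf3-/- mice came from the Jackson Laboratory and were bred locally, so the 2 groups were not described as littermates. Batf3 was missing from the germline and hence from all cells of those mice. T and B cells were depleted, Fc receptors were blocked before the antibodies were added, and live MHCII+ CD11c+ cells were sorted.

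CSF1R is the receptor tyrosine kinase for M-CSF and IL-34 and is best known from monocytes and macrophages. CSF2RA binds GM-CSF and pairs with the common β chain CSF2RB, which also serves the receptors for IL-3 and IL-5, while the β chain encoded by Csf2rb2 serves IL-3 alone in mice. CSF3R is the G-CSF receptor of granulocytes and their precursors. Fcγ receptors bind the constant part of IgG. FcγRI, FcγRIII and FcγRIV, the products of Fcgr1, Fcgr3 and Fcgr4, are activating receptors that signal through the ITAM of the shared γ chain FCER1G, whereas FcγRIIB, the product of Fcgr2b, carries an inhibitory motif of its own. FCER1G also serves other activating receptors of myeloid and NK cells. FcRn, the product of Fcgrt, binds IgG in acidic endosomes and protects it from breakdown.

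The WT library held 12224 cells with 122530055 transcript UMIs, and the Batf3-/- library held 12119 cells with 114517073 UMIs, at medians of 8374.5 and 8516 UMIs per cell. The libraries shared 56 cell barcode sequences. The authors' 20 clusters, C0 to C19, were used as deposited, with the study's names for them checked against marker lists. Markers of cDC1 summed to 3263 CPM in C4, 1714 CPM in the dividing cells of C6 and 629 CPM in the mature cells of C12, and cDC1 markers also led C17 and C18, while C0, C5, C7, C8, C9 and C10 were named cDC2a and C2 and C11 cDC2b. C1 held mature Il4i1+ cells, C3 the Sox4+ cells, C13 lymphocytes with some dendritic cells and C14 the plasmacytoid DC (pDC). C15 held the monocytes, with monocyte markers at 15816 CPM, the neutrophil markers at 15010 CPM there coming mostly from a few cells. C17 and C18 had 1 and 2 Batf3-/- cells and were left out of comparisons between genotypes within clusters, C4 and C12 had 31 Batf3-/- cells each beside 2202 and 394 WT cells, and C9 and C17 were shallow, at medians of 1478.5 and 2356 UMIs per cell. Mitochondrial genes gave 13.3% of the UMIs of C9 in Batf3-/- and slightly more in WT, and 13.7% of those of C17 in WT, beside 2.08 to 6.54% in the other clusters with at least 20 cells of a library, and the study also lists C9 as mixed cDC2. Batf3 itself, read in the cDC1 cells of C6, was 288 CPM in WT and 0.446 CPM in Batf3-/-, as the labels have it. Scrublet called 541 WT cells (4.43%) and 244 Batf3-/- cells (2.01%) doublets, which were kept and also left out as an alternative.

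Levels are UMIs of a gene per 1000000 UMIs summed over the cells of a cluster (CPM). Each molecule was counted once at its 3′ end, so a level does not scale with the length of the gene. Values in parentheses after a level, a share or a log2 ratio are its 95% interval, which covers counting error only. Each genotype was a single library, so the genotypes could not be tested against each other and no p-value is given. The clusters were built from these same transcripts, so their order is a description. A sum over a cluster cannot tell fewer expressing cells from less RNA in each cell. Cells were also thinned to 1000 UMIs each and the share with at least 1 UMI of a gene was counted, which left out 70 shallower cells. At this depth the share also depends on the RNA in each cell, so it does not settle that question.

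Free RNA was gauged in 104 cells of C13 that carried the deposited T cell or NKT label, at a median of 4012 UMIs. Fcer1g stood at 27.6 CPM there and was seen in 1.92% of the thinned cells, Csf2ra and Csf2rb each stood at 9.19 CPM, and the other members were at 0 or 2.30 CPM. Read as fewer than 3 cells, a count of 0 of 104 allows a share of up to 2.88%, and its exact interval reaches 3.48%. The upper limits of these background levels were 8.48 CPM for the members at 0, 12.8 CPM for Fcgr2b, Fcgr3 and Fcgrt, 23.5 CPM for Csf2ra and Csf2rb and 48.2 CPM for Fcer1g, and a level at or under its limit is not shown to be above free RNA. The gauge pooled both libraries, with 56 T and 23 NKT cells from WT and 19 and 6 from Batf3-/-. Its limits thus rest mostly on WT cells and are not shown for the Batf3-/- library alone.

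**Figure D1:**
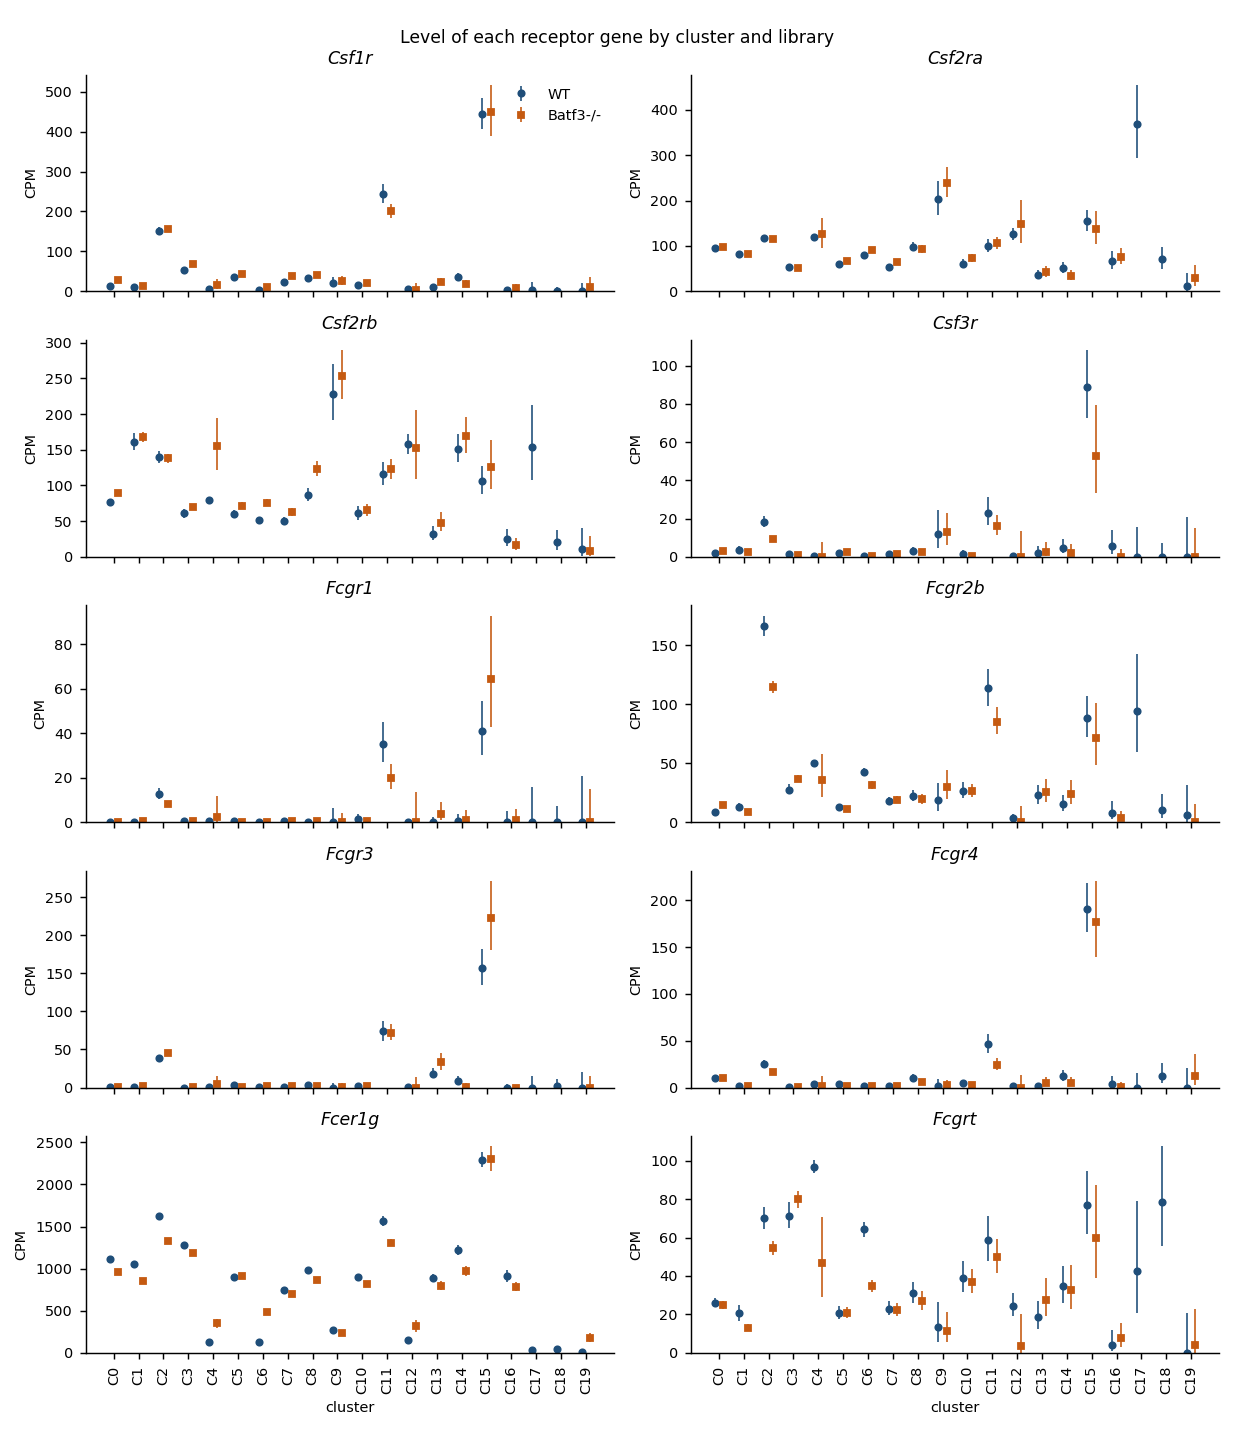
Level of the 10 receptor genes in each cluster, in CPM on a linear axis from 0, with circles for WT, squares for Batf3-/- and bars for the 95% counting interval; clusters with under 20 cells of a library lack its point. C15 holds the highest Csf1r, Csf3r, Fcgr1, Fcgr3, Fcgr4 and Fcer1g in both libraries, and Fcer1g is low in C4, C6 and C12 as well as in C17 and C18, with the Batf3-/- squares of C4, C6 and C12 above the WT circles.

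The members differed in how far their highest cluster stood above the median of the 17 clusters of at least 100 cells. The highest level was 19.1 times the median cluster for Csf1r, 2.54 times for Fcer1g, 2.63 times for Csf2ra, 2.95 times for Csf2rb, 3.31 times for Fcgrt and 5.59 times for Fcgr2b. In the median cluster the activating Fcγ receptors and Csf3r stood at 0.46 to 2.96 CPM, no higher than the upper limits of the free RNA gauge, 8.48 CPM or more, so no such fold is given for them. Csf1r, at 23.3 CPM, was near the inhibitory receptor gene Fcgr2b, at 23.7 CPM.

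Csf1r was highest in the monocytes of C15, at 445 CPM (407 to 485) in WT and 449.5 CPM (389 to 517) in Batf3-/-, which overlapped each other. It was next in the cDC2b cells of C11, at 244 CPM (222 to 268) in WT and 201 CPM (184 to 219.5) in Batf3-/-, and then in C2, at 152 CPM (143 to 160.3) in WT and 157 CPM (150.4 to 163) in Batf3-/-. The 2 libraries gave the same order of these 3 clusters with no overlap between neighbours. Below them came the Sox4+ cells of C3, at 64.3 CPM (60.9 to 67.8) over both libraries, and C5, at 41.2 CPM (38.3 to 44.3), and the lowest level was that of the cDC1 cells of C4, at 6.41 CPM (5.59 to 7.31). After thinning, 42.6% (35.6 to 49.9%) of C15 cells, 21.8% (18 to 26.0%) of C11 cells and 14.5% (13.1 to 15.9%) of C2 cells held a Csf1r UMI. The share of cells in which the receptor was seen thus rose with its level. This cannot tell more expressing cells from more RNA in each cell. The Csf1r gene overlaps Hmgxb3 on the opposite strand.

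Csf2ra was read in all 17 of these clusters. The shallow cDC2a cluster C9, high in mitochondrial UMIs as given above, was highest, at 203 CPM (169 to 243) in WT and 239 CPM (207 to 273) in Batf3-/-, and the part of this in its levels was not tested. C15 at 150.4 CPM (132 to 171), C12 at 128 CPM (116 to 141), C4 at 121 CPM (117 to 124) and C2 at 116 CPM (112 to 121) over both libraries followed, each overlapping the next. For this α chain of the GM-CSF receptor the interval of the monocytes thus lay above those of C4 and C2, while that of the mature cDC1 of C12 overlapped all 3. The lowest level was in the lymphocytes of C13, at 38.5 CPM (31.5 to 46.7), and the smaller, shallow cDC1 cluster C17 reached 368 CPM (295 to 455) in WT.

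Csf2rb was again highest in C9, at 228 CPM (192 to 270.2) in WT and 254 CPM (221 to 289.5) in Batf3-/-. The mature Il4i1+ cells of C1 at 166 CPM (161 to 172), the pDC of C14 at 158 CPM (143 to 174) and the mature cDC1 of C12 at 157 CPM (144 to 171) overlapped each other, and C2 was below them at 139 CPM (134 to 143). Within the cDC1 clusters the common β chain stood higher in C12 than in C4, at 81.0 CPM (78.0 to 84.0), and C6, at 62.7 CPM (59.9 to 65.6). Where C9 stood depended on how cells were counted: in cells thinned to 2000 UMIs, which most cells of C9 do not reach, the largest share of cells with a Csf2rb UMI was in C1.

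The IL-3-specific β chain gene Csf2rb2 was most abundant in pDC, at 129 CPM (112 to 148) in WT and 142 CPM (120.0 to 167) in Batf3-/-. C9 at 57.6 CPM (45.9 to 71.3) and C1 at 52.9 CPM (49.7 to 56.3) came next, and the levels in C0 and C6 were 11.4 CPM and 10.7 CPM. Of the UMIs of both β chain genes, Csf2rb made up 54.1% (50.5 to 57.7%) in C14, with 54.0% in WT and 54.3% in Batf3-/-. It made up 69.6% (67.6 to 71.6%) in C3, 75.9% (74.5 to 77.2%) in C1 and 87.9% (86.9 to 88.9%) in C0. Over both libraries the pDC were nearest to equal among the clusters with at least 20 UMIs of the pair, while in the Batf3-/- library C16, with 15 UMIs of each gene, was nearer. None of the 410 pieces of 91 bases, the length checked here, in the last 500 bases of Csf2rb and Csf2rb2 transcripts was shared between them.

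Csf3r was rare outside C15. Its level there was 89.0 CPM (72.5 to 108) in WT and 52.7 CPM (33.4 to 79.1) in Batf3-/-. C11 at 18.9 CPM (15 to 23.4) and C2 at 12.3 CPM (10.9 to 13.8) were far below, and C4 held 12 UMIs in all its cells. A few cells with the deposited neutrophil label carried part of it: the 7 such cells in C15, 6 of them WT, held 28 of its 125 UMIs, at 541 CPM (359 to 781), beside 57.9 CPM (45.6 to 72.6) in the 175 cells labelled monocytes. Without them the levels in C15 were 67.8 CPM in WT and 51.9 CPM in Batf3-/-.

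Fcer1g was the most abundant of the 10 genes. In C15 it stood at 2293 CPM (2206 to 2383) in WT and 2305 CPM (2165 to 2452) in Batf3-/- and ranked 81st among all genes by level. C2 at 1433 CPM (1417 to 1448) and C11 at 1413 CPM (1378 to 1449) over both libraries overlapped each other, followed by C3 at 1213 CPM (1198 to 1228), C14 at 1123 CPM (1082 to 1164) and C0 at 1037 CPM (1028 to 1047). The γ chain was thus read above background in the DC and monocyte clusters of at least 100 cells, pDC included, and stood lowest in the cDC1 clusters and in the shallow C9, at 246 CPM. In WT cells it stood at 157 CPM (143 to 172) in C12, 131 CPM (126 to 137) in C6 and 126 CPM (122 to 129.8) in C4, where it ranked 848th over both libraries, and at 34.3 CPM and 42.3 CPM in the small clusters C17 and C18, under the free RNA limit. Part of that low level sat in cells called doublets: without the 239 doublets among the WT cells of C4 the level was 76.5 CPM (73.3 to 79.7), and without the 27 in C12 it was 92.9 CPM (81.6 to 105).

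Fcgr1, which encodes the high-affinity IgG receptor, was found in the same 3 clusters as the highest Csf1r. It stood at 41.0 CPM (30.1 to 54.5) in WT and 64.2 CPM (42.7 to 92.8) in Batf3-/- in C15, at 35.2 CPM (27.0 to 45.0) in WT and 19.9 CPM (14.8 to 26.2) in Batf3-/- in C11 and at 12.7 CPM (10.4 to 15.3) in WT and 7.96 CPM (6.61 to 9.5) in Batf3-/- in C2. No other cluster of at least 100 cells was above 1.48 CPM, the level of C13, and C0, the largest cluster, held 4 Fcgr1 UMIs among 43692973. In WT C0 cells the count was 0.

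Fcgr3 followed the same order, at 157 CPM (135 to 182) in WT and 222 CPM (180.4 to 271) in Batf3-/- in C15, 72.7 CPM (64.9 to 81.1) over both libraries in C11 and 43.1 CPM (40.5 to 45.9) in C2. The lymphocyte cluster C13 came next at 24.4 CPM (18.9 to 31.1). Of its 66 Fcgr3 UMIs, 25 were in cells labelled NK, at 67.7 CPM (43.8 to 99.9), 20 in cells labelled ILC, at 32.7 CPM (19.9 to 50.4), and 10 in cells labelled DC, while cells labelled T cells held 1. The same NK-labelled cells held Fcer1g at 1719 CPM (1588 to 1858) and none of the 3 other Fcγ receptor genes beyond 5 UMIs of Fcgr2b. In the cDC2a cells of C0, Fcgr3 was at 0.412 CPM (0.244 to 0.651), from 18 UMIs.

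Fcgr4 was highest in C15 as well, at 191 CPM (167 to 218) in WT and 177 CPM (139 to 221) in Batf3-/-, and was 33.6 CPM (28.3 to 39.5) over both libraries in C11 and 19.4 CPM (17.7 to 21.3) in C2. Unlike Fcgr1 and Fcgr3 it was also read in the cDC2a cells of C0, at 9.76 CPM (8.50 to 11.2) in WT and 10.5 CPM (9.16 to 11.9) in Batf3-/-, where C14 and C8 overlapped it at 9.22 CPM and 8.21 CPM. Of the UMIs of Fcgr4 and Fcgr3 together, Fcgr4 made up 96.1% (93.9 to 97.7%) in C0, 51.7% (47.5 to 55.8%) in C15 and 31.1% (28.7 to 33.5%) in C2. After thinning, 1.06% (0.819 to 1.35%) of C0 cells held an Fcgr4 UMI, against 0.0891% (0.0108 to 0.321%) of C3 cells and 0.0780% (0.00945 to 0.281%) of C1 cells, whose median depths of 9158 and 6576.5 UMIs lie on both sides of the 6871 of C0. The interval of C0 did not overlap those of C3 and C1. Each of these shares was under the 2.88% that the free RNA gauge allows.

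Both Fcgr1 and Fcgr4 hold the purine-rich core letters of PU.1, a transcription factor of myeloid cells, close to the start site, and Fcer1g does not. They are shown for that reason, from the RefSeq table of starts on GRCm38.p6, 5′ to 3′ on the strand of the gene, with the core in capitals as it reads on that strand (TTCCTC is GAGGAA on the other). Fcgr1 is at chr3:96293970-96294219 on the minus strand, Fcgr4 at chr1:171018676-171018919 on the plus strand and Fcer1g at chr1:171234366-171234599 on the minus strand. Bases inside the annotated gene are left out.
Fcgr1: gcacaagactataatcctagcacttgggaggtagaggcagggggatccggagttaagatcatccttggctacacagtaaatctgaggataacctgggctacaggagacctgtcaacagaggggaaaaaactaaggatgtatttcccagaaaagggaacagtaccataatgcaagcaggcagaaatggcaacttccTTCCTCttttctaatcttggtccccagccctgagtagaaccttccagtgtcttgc
Fcgr4: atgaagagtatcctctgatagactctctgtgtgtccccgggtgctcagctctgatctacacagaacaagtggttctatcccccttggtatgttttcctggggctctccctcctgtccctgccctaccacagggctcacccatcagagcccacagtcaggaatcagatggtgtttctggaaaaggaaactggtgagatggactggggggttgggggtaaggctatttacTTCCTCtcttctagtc
Fcer1g: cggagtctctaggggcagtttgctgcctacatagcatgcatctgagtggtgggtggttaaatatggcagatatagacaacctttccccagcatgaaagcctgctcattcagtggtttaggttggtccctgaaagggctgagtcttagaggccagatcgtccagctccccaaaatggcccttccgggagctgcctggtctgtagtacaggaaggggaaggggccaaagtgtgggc
The core lies at -55 to -50 in Fcgr1 and at -22 to -17 in Fcgr4, counted from the RefSeq start. The search of both strands for GAGGAA, in the 250 bases before the start, also matched Csf2ra, Csf3r, Fcgr3 and Csf2rb2. Csf2ra, which was read in all 17 clusters of at least 100 cells, holds the core at -14 to -9 and at -8 to -3. Of all 32851 promoters, 23.3% hold it in as many bases, so a match is common. The C/EBP letters TTGCNNAA (9.56% of promoters) were in Fcgr3 and Fcgrt, the ETS-IRF letters GGAANNGAA (6.99%) were in Fcgr2b, and the AP-1 letters TGANTCA (6.75%) were in none of the 8 members that have an entry. Csf1r and Csf2rb have no entry. No match says only that these letters are not in that window.

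Fcgr2b, the inhibitory receptor, had another order than the activating ones. Its highest level was in the cDC2b cells of C2, at 166 CPM (157 to 175) in WT and 114 CPM (109 to 120.0) in Batf3-/-. C11 at 96.8 CPM (87.8 to 107) and C15 at 83.4 CPM (69.8 to 98.9) over both libraries overlapped each other below it. The cDC1 clusters came next, C4 at 49.7 CPM (47.4 to 52.1) and C6 at 37.3 CPM (35.2 to 39.6), together with C3 at 34.2 CPM (31.7 to 36.7). In C0 it stood at 11.5 CPM, and in the mature cDC1 of C12 at 3.39 CPM (1.69 to 6.07), the lowest of the 17 clusters. Mature C12 cells and immature C4 cells thus differed in opposite ways for the inhibitory Fcγ receptor, lower in C12, and the common β chain, higher in C12.

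The balance of the low-affinity receptors was set as the share of Fcgr2b in the UMIs of Fcgr2b and Fcgr3. It was 32.3% (27.8 to 37.0%) in C15, 57.1% (53.5 to 60.7%) in C11 and 75.4% (74.1 to 76.7%) in C2. It was 96.5% (94.6 to 97.9%) in C0, 97.6% (96.8 to 98.3%) in C4, 97.6% (96.5 to 98.4%) in C6 and 99.2% (98.2 to 99.7%) in C3. Of the clusters with at least 20 UMIs of the pair, C15 was the one whose interval lay below equal shares, while C13, at 49.2% (40.4 to 58.1%), could not be told from them, and in C0, C3, C4 and C6 nearly all UMIs of the pair were inhibitory. In C0 both genes were under the free RNA limit, Fcgr2b at 11.5 CPM and Fcgr3 at 0.412 CPM. Its Fcgr2b shares are therefore not shown to be above free RNA. Against all 3 activating genes, Fcgr2b made up 16.9% of the Fcγ receptor UMIs in C15, 42.2% in C11, 64.7% in C2 and 51.9% in C0, where Fcgr4 gave most of the activating UMIs. The C0 share was 45.4% (40.5 to 50.4%) in WT and 56.6% (52.4 to 60.8%) in Batf3-/-. No piece of 91 bases in the last 500 bases of the Fcgr2b, Fcgr3 and Fcgr4 transcripts was shared between them.

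**Figure D2:**
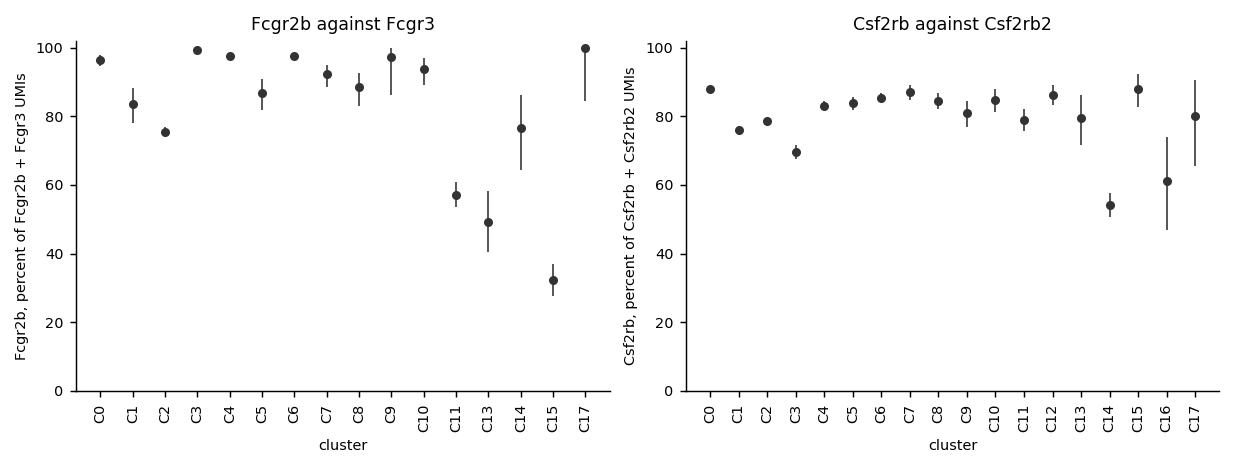
Share of Fcgr2b in the UMIs of Fcgr2b and Fcgr3 (left) and of Csf2rb in the UMIs of Csf2rb and Csf2rb2 (right), in percent over both libraries, for clusters with at least 20 UMIs of the pair, with exact 95% binomial intervals. The Fcgr2b share is 32.3% in C15 and 75.4% in C2, and the Csf2rb share is lowest in C14, at 54.1%.

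Fcgrt, the neonatal Fc receptor, was the one member that was highest in cDC1 among the clusters of at least 100 cells, by CPM. It stood at 96.7 CPM (93.5 to 100.1) in WT C4 cells, and in C3 at 71.4 CPM (64.9 to 78.4) in WT and 79.8 CPM (75.4 to 84.4) in Batf3-/-. C15 at 72.0 CPM, C2 at 60.0 CPM, C11 at 53.4 CPM and C6 at 50.6 CPM over both libraries each overlapped the next. The clusters that the study names mature differed. Fcgrt was 22.8 CPM (17.9 to 28.6) in C12 and 15.1 CPM (13.4 to 17.0) in C1. It was 53.4 CPM in C11 and 29.0 CPM (25.5 to 32.9) in C8, which overlapped C0 at 25.4 CPM (23.9 to 26.9). In the Batf3-/- library, where C4 stood at 46.7 CPM, C3 had the highest Fcgrt of the clusters with at least 20 cells.

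The clusters were not uniform, and the deposited cell labels, themselves made from the same transcripts, divided several of them. Of the 2462 cells of C2, 864 were labelled monocytes and 1592 DC. Csf1r was 245 CPM (234 to 256) in the monocyte-labelled and 111 CPM (106 to 116) in the DC-labelled cells, and Fcgr2b was 227 CPM (216 to 238) and 86.4 CPM (81.9 to 91.1). Fcgr3 differed by more, at 101 CPM (94.5 to 109) and 14.6 CPM (12.8 to 16.6), as did Fcgr1, at 21.9 CPM (18.7 to 25.5) and 3.6 CPM (2.73 to 4.66). Fcer1g, the shared chain, was 1773 CPM (1744 to 1803) and 1265 CPM (1247 to 1282). Most UMIs of the activating receptors in C2 were in cells labelled monocytes, while DC-labelled cells kept most of the γ chain level.

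In C11 the 47 macrophage-labelled cells held Csf1r at 562 CPM (483 to 649), Fcgr3 at 232 CPM (183 to 290.3) and Fcgr1 at 73.2 CPM (46.9 to 109). The 296 DC-labelled cells of that cluster held them at 129.6 CPM, 34.4 CPM and 13.4 CPM. Fcgr4 differed less, at 39.7 CPM (21.1 to 67.8) and 24.9 CPM (19.6 to 31.1), with intervals that overlapped.

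The monocytes of C15 were divided by Ly6c2, a gene of classical monocytes, as seen after thinning in 29 of 197 cells. In cells with it, Fcgr1 was 114 CPM (77.1 to 163), Fcgr3 320.1 CPM (255 to 396) and Fcgr4 30.5 CPM (13.2 to 60.1). In the other 168 cells Fcgr1 was 34.1 CPM (24.9 to 45.6), Fcgr3 146 CPM (126 to 168) and Fcgr4 218 CPM (194 to 245). Fcgr4 and Csf1r, which was 301 CPM with Ly6c2 and 475 CPM without it, thus went the opposite way from Fcgr1 and Fcgr3. In single thinned cells Fcgr4 and Ly6c2 were seen together in 1 cell, 0.51% (0.013 to 2.80%), where the product of their shares is 3.29%. Fcgr4 and Fcgr3 were seen together in 3.05% of the cells (1.13 to 6.51%), an interval that covered the product of 5.44%. In C2, Fcgr2b and Fcgr3 were seen together in 1.26% of cells (0.86 to 1.78%), beside a product of 0.46%. For this pair the interval covered the product in C11, at 0.23% (0.0059 to 1.29%) beside 0.43%. It also did in C15, at 3.05% (1.13 to 6.51%) beside 1.98%. Cells of 1 library share their source, so these shares are a description.

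**Figure D3:**
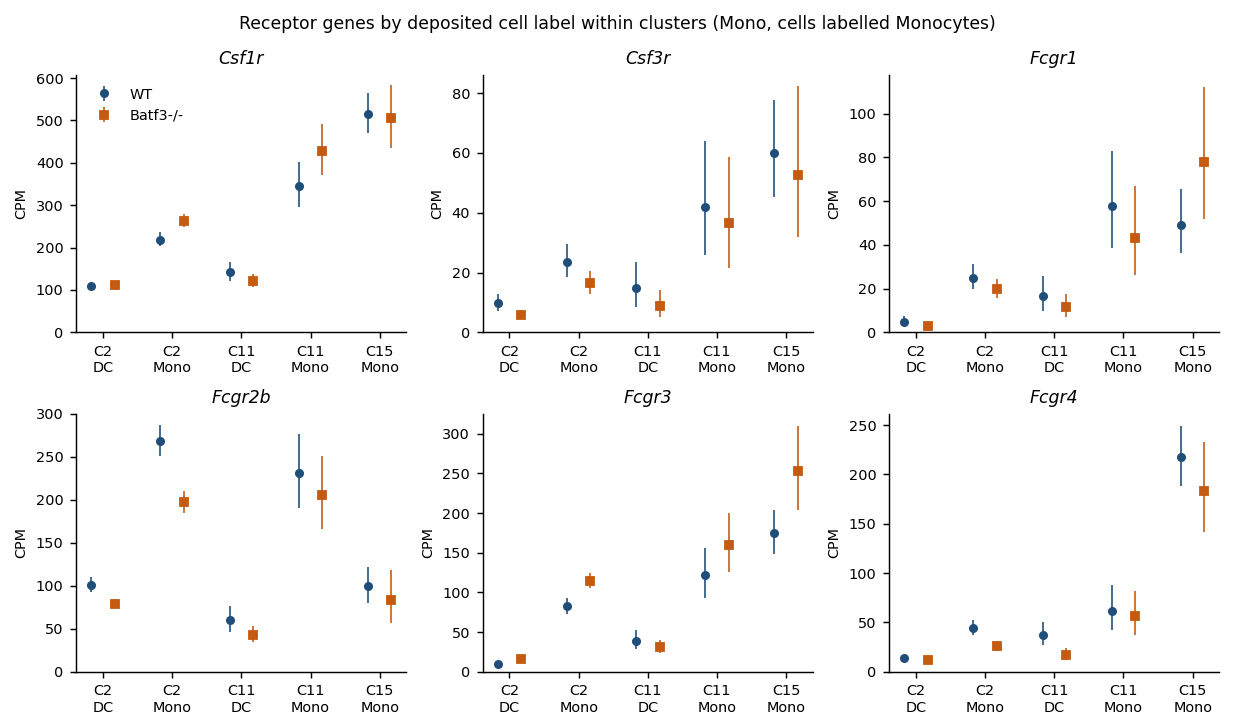
Level of 6 receptor genes in cells of C2, C11 and C15 that carry the deposited DC or monocyte label, in CPM on a linear axis from 0, with circles for WT, squares for Batf3-/- and bars for the 95% counting interval. Monocyte-labelled cells lie above DC-labelled cells of the same cluster for each gene and library shown in C2, and the Fcgr2b circles of C2 lie above the squares in both labels.

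The genes whose log2 levels were most alike over the 17 clusters, among 8407 genes, were named for each member by Pearson's r, as a description over points that share both libraries. For Csf1r they were Lrp1 (r = 0.925), Cyp4f18 and Cd300lb. For Fcgr1 they were C3 (r = 0.968) and Retnlg, and for Fcgr3 they were Sqor (r = 0.935) and Fcgr1. For Fcgr4 they were Klra2 (r = 0.917), Sqor and Pla2g7, and for Csf3r they were Pla2g7 (r = 0.903), Pilrb1 and Pilrb2. Each of these was itself highest in C15. Csf2ra was most like Sipa1l3 (r = 0.886) and Piezo1, and Csf2rb most like Sowahc (r = 0.883), Tbc1d8 and Pde4a, all highest in C9. Fcer1g was most like S100a6 (r = 0.941), Tspan14 and Atp6ap1, Fcgr2b like Orai1 (r = 0.865), Tnfrsf21 and AB124611, and Fcgrt like BC028528 (r = 0.897), Camk1d and Lgals3.

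The genotypes were then compared within clusters as the log2 ratio of the Batf3-/- over the WT level. A gene was counted as past 2-fold where it had at least 20 UMIs over both libraries, in the 18 clusters with at least 20 cells from each. The question is whether cells that lack Batf3 keep the receptor pattern of their cluster, above all in C6, the one cDC1 cluster with similar numbers of cells from both genotypes, 797 WT and 727 Batf3-/-.

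In C6 the γ chain transcript was higher in Batf3-/- cells. Fcer1g stood at 131 CPM (126 to 137) in WT and 488 CPM (476 to 499.95) in Batf3-/-, a log2 ratio of 1.89 (1.82 to 1.96). The Batf3-/- level lay between that of WT C6 cells and that of the dividing cDC2a cells of C5, which was 905 CPM in WT and 913 CPM in Batf3-/-. After thinning, 10.2% (8.15 to 12.5%) of WT and 38.1% (34.6 to 41.7%) of Batf3-/- C6 cells held an Fcer1g UMI, and 1.51% and 10.3% held 2 or more. The difference was thus spread over many cells and not held by a few very high ones. At this depth the shares cannot tell more expressing cells from more RNA in each cell.

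**Figure D4:**
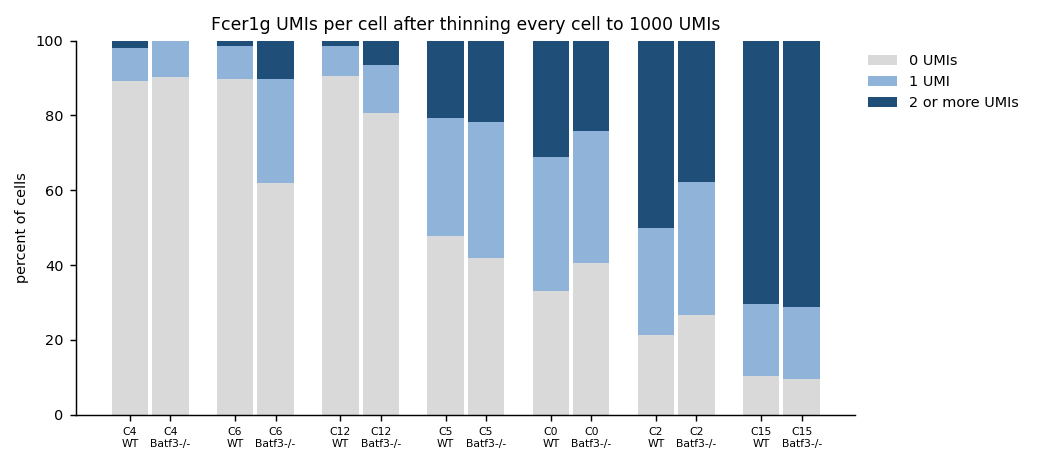
Stacked bars of the share of cells, in percent, with 0, 1 and 2 or more Fcer1g UMIs after thinning to 1000 UMIs per cell, for 7 clusters and both libraries. In C6 89.8% of WT cells and 61.9% of Batf3-/- cells hold 0, whereas in C0 and C2 the Batf3-/- library has the larger share of cells at 0.

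The difference in C6 was found on both sides of a split by cDC1 genes. Among cells in which Xcr1 or Clec9a was seen after thinning, Fcer1g was 102 CPM (94.2 to 109) in 351 WT cells and 430.2 CPM (398 to 464) in 85 Batf3-/- cells. Among the others it was 156 CPM (148 to 164) in 446 WT and 496 CPM (483 to 508) in 642 Batf3-/- cells. In cells with the deposited S or G2M phase it was 126 CPM in WT and 455 CPM in Batf3-/-. In G1 it was 528 CPM in 13 WT cells, 5 of them called doublets that held most of the UMIs, and 623 CPM in 189 Batf3-/- cells, a ratio of 0.24. Without the doublets the G1 levels were 300.0 CPM (205 to 423) in WT and 624 CPM (594 to 655) in Batf3-/-. With all called doublets left out, 61 in WT and 8 in Batf3-/-, the levels were 107 and 488 CPM. The summed cDC1 markers of C6 were 2669 CPM in WT and 605 CPM in Batf3-/-, all 8 detected in both, the cDC2 markers 46.7 CPM and 207 CPM, the monocyte markers 540.2 CPM and 719 CPM and the macrophage markers 16.6 CPM and 24.9 CPM. Their part in the Fcer1g difference was not tested.

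Csf1r and Fcgr3 were also past 2-fold in C6, at levels near the background. Csf1r was 4.35 CPM (3.38 to 5.51) in WT and 10.0 CPM (8.41 to 11.9) in Batf3-/-, a log2 ratio of 1.21 (0.77 to 1.65). Fcgr3 had 7 UMIs in WT and 20 in Batf3-/-, a ratio of 1.73 (0.43 to 3.22), and without doublets 3 and 20 UMIs, a ratio of 2.84 (1.09 to 5.23). Both Fcgr3 levels and the WT level of Csf1r were under the free RNA limits, and the interval of Csf1r in Batf3-/- cells took in its limit, so for neither is a difference above free RNA shown. These 3 were all that passed among 8 members with enough UMIs, where 8.36% of the 11122 genes counted in C6 were past 2-fold in either direction. The count was 5 at a minimum of 5 UMIs, beside 13.2% of genes, 2 at a minimum of 50 UMIs, beside 6.21%, and 4 at a fold of 1.5, beside 17.5%, and in G1 cells alone 2 other members passed, Csf2rb and Fcgrt, beside 20.2%. The median log2 ratio in C6 was 0.51 over the 8 members and 0.00 over all genes.

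The other members of C6 differed by less. Csf2rb was 51.2 CPM (47.7 to 54.9) in WT and 76.0 CPM (71.5 to 80.9) in Batf3-/-, a ratio of 0.57 (0.44 to 0.71), and Csf2ra was 79.5 CPM in WT and 91.9 CPM in Batf3-/-, a ratio of 0.21 (0.10 to 0.33). The inhibitory receptor and FcRn were lower in Batf3-/- cells. Fcgr2b was 42.5 CPM (39.3 to 45.9) in WT and 31.3 CPM (28.4 to 34.5) in Batf3-/-, a ratio of -0.44 (-0.62 to -0.26), and Fcgrt was 64.2 CPM (60.3 to 68.3) in WT and 34.8 CPM (31.7 to 38.1) in Batf3-/-, a ratio of -0.88 (-1.04 to -0.72). Fcgr4 had an interval that covered 0, and Csf3r and Fcgr1 were below 20 UMIs. Fcgrt and Fcgr2b were thus lower in Batf3-/- C6 cells, and the γ chain and both chains of the GM-CSF receptor were higher.

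In the few Batf3-/- cells of the other cDC1 clusters the summed levels of the γ chain were again higher and those of FcRn lower. In C4, Fcer1g was 126 CPM (122 to 129.8) in WT and 351 CPM (299 to 408) in Batf3-/-, a ratio of 1.48 (1.24 to 1.70). Without doublets it was 76.5 CPM in WT and 353 CPM in Batf3-/-, a ratio of 2.21 (1.96 to 2.44). The 165 UMIs of the 31 Batf3-/- cells were spread at a median of 4 per cell, with 44 in the top 3 cells, but after thinning 28 of the 31 held none (90.3%), beside 89.3% of WT cells, so the thinned cells did not show the difference. Fcgrt in C4 was 96.7 CPM (93.5 to 100.1) in WT and 46.7 CPM (29.3 to 70.8) in Batf3-/-, a ratio of -1.05 (-1.73 to -0.45). Csf1r and Fcgr3 were past 2-fold as well, with intervals that covered 0 and WT levels under the free RNA limits, so 4 of 8 members passed in a cluster where 26.9% of genes did. Without doublets Csf2rb was past 2-fold there too, at 1.06 (0.70 to 1.40), and Csf1r was at 2.04 (0.69 to 3.13), so 5 of 8 members passed beside 26.8% of genes. In C12, Fcgrt had 73 UMIs in WT and 1 in Batf3-/-, a ratio of -2.77 (-8.09 to -0.24), and was 1 of 5 members past 2-fold beside 18.7% of genes. Without doublets Csf1r had 21 UMIs in WT and 0 in Batf3-/- in C12, and so had no ratio there. Fcer1g in C12, at 157 CPM in WT and 315 CPM in Batf3-/-, was just inside the threshold at 1.00 (0.65 to 1.33). Without doublets it was past 2-fold, at 92.9 CPM in WT and 287 CPM in Batf3-/-, a ratio of 1.63 (1.23 to 2.01), beside 18.9% of genes. With doublets kept, 39 of the 87 Batf3-/- UMIs were in the top 3 cells. The median was 1 per cell, and 12 of the 31 cells held none. After thinning, 80.6% (62.5 to 92.5%) of Batf3-/- and 90.5% (87.2 to 93.2%) of WT cells of C12 held none, intervals that overlapped. All values of these clusters rest on 31 Batf3-/- cells.

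**Figure D5:**
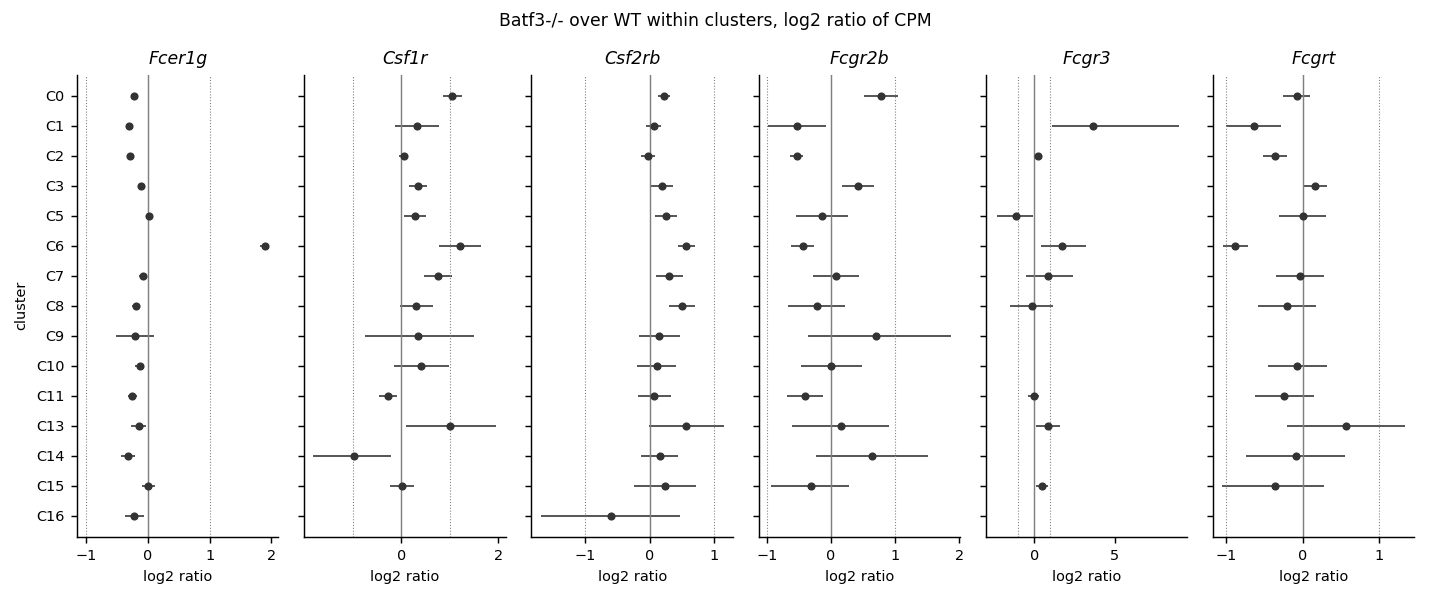
Log2 ratio of the Batf3-/- over the WT level for 6 receptor genes in clusters with at least 50 cells from each library and at least 20 UMIs, with 95% counting intervals and dotted lines at 2-fold; the axis range differs between genes. Fcer1g in C6 stands at 1.89, and its ratios in most other clusters lie slightly below 0.

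Outside the cDC1 clusters Fcer1g went the other way, by little. Its interval lay below 0 in 11 of 15 such clusters and above 0 in 1, and the lowest ratio was -0.32 in C14, where the levels were 1221 CPM in WT and 976 CPM in Batf3-/-. In C0 they were 1117 CPM in WT and 958 CPM in Batf3-/-, a ratio of -0.22 (-0.25 to -0.20), and in C2 1628 CPM in WT and 1327 CPM in Batf3-/-, a ratio of -0.30 (-0.33 to -0.26). In C15 they were nearly equal, with a ratio of 0.01 (-0.10 to 0.11). The exception was C19, with 2 UMIs in WT and 44 in Batf3-/- in 29 and 36 cells, the 1 member with enough UMIs there, beside 13.2% of genes past 2-fold.

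Csf1r was higher in Batf3-/- cells of C0, at 14.1 CPM (12.6 to 15.8) in WT and 29.2 CPM (26.9 to 31.5) in Batf3-/-, a ratio of 1.05 (0.85 to 1.25). It was the only one of 8 members past 2-fold there, beside 2.47% of genes. The share of thinned C0 cells with a Csf1r UMI was 1.26% (0.902 to 1.71%) in WT and 2.74% (2.18 to 3.40%) in Batf3-/-. Both shares were under the 2.88% that the free RNA gauge allows. Over the 13 clusters outside cDC1 with enough UMIs the interval of the Csf1r ratio lay above 0 in 5 and below 0 in 2, C11 at -0.28 (-0.46 to -0.09) and C14 at -0.98 (-1.81 to -0.20). Without doublets Csf1r in C14 was past 2-fold, at -2.50 (-4.20 to -1.16), from 40 UMIs in WT and 5 in Batf3-/-, beside 4.64% of genes. Within the labels of C11 it was on the other side in monocyte-labelled cells, at 0.30 (0.0030 to 0.61), and at -0.23 (-0.52 to 0.07) in DC-labelled cells. In C13, Csf1r was 1 of 7 members past 2-fold, at 11.6 CPM in WT and 23.4 CPM in Batf3-/-, a ratio of 1.01 (0.10 to 1.96), beside 4.33% of genes. Without doublets, 41 in WT and 4 in Batf3-/-, 4 of 7 members were past 2-fold higher in C13, beside 6.92% of genes in either direction. They were Csf1r at 3.68 (1.69 to 6.80), Csf2rb at 1.51 (0.67 to 2.43), Fcgr2b at 1.10 (0.07 to 2.21) and Fcgrt at 2.25 (0.84 to 3.99). Their WT levels were then 1.91, 15.3, 11.5 and 4.77 CPM, each under its free RNA limit. With doublets kept, DC-labelled cells were 18.7% of WT and 23.3% of Batf3-/- cells of C13. Cells labelled T cells were 56 of 241 in WT and 19 of 146 in Batf3-/-. The part of this makeup in the C13 ratios was not tested. In the monocytes of C15, where Csf1r was most abundant, its ratio was 0.01 (-0.23 to 0.26).

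Csf2rb had no interval below 0 in any of the 17 clusters in which it had enough UMIs. Outside cDC1 its interval lay above 0 in 5 of 14 clusters, with ratios of 0.22 in C0, 0.19 in C3, 0.25 in C5, 0.31 in C7 and 0.50 in C8. In C8 the levels were 87.1 CPM (78.3 to 96.6) in WT and 123 CPM (113 to 134) in Batf3-/-. Its neighbour Csf2rb2 lay above 0 in 6 of 14 such clusters and below 0 in none, for example at 8.16 CPM (7.00 to 9.45) in WT and 14.5 CPM (13 to 16.2) in Batf3-/- in C0. Csf2rb2 had 0 UMIs in the free RNA gauge, with an upper limit of 8.48 CPM. Its WT level in C0 was under that limit, as were those in C10, at 7.73 CPM, and C13, at 5.17 CPM. Both β chain genes thus read somewhat higher in several Batf3-/- cDC2a clusters, while Csf2ra in C0 had a ratio of 0.03 (-0.06 to 0.12).

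In the cDC2b cells of C2 the Fcγ receptors divided. Fcgr2b was lower in Batf3-/- cells, with a ratio of -0.54 (-0.64 to -0.43), as were Fcgr4 at -0.64 (-0.91 to -0.37) and Fcgr1 at -0.67 (-1.06 to -0.28), while Fcgr3 was higher at 0.26 (0.07 to 0.46). The Fcgr2b share of the pair with Fcgr3 was 81.3% (79.3 to 83.1%) in WT and 71.4% (69.6 to 73.2%) in Batf3-/-. The share of monocyte-labelled cells in C2 was 40.8% in WT and 31.6% in Batf3-/-. Within those cells the Fcgr2b ratio was -0.44 (-0.58 to -0.31), that of Fcgr4 -0.78 (-1.15 to -0.42) and that of Fcgr3 0.47 (0.26 to 0.69). Within DC-labelled cells Fcgr2b was -0.35 (-0.51 to -0.19) and Fcgr3 0.70 (0.24 to 1.17), but Fcgr4 was -0.14 (-0.57 to 0.30). The interval of Fcgr1 covered 0 within either label, at -0.34 (-0.79 to 0.11) in monocyte-labelled and -0.73 (-1.53 to 0.08) in DC-labelled cells. For Fcgr2b and Fcgr3 the directions in C2 were thus the same within each label. The WT level of Fcgr3 in DC-labelled cells, 10.3 CPM, was however under its free RNA limit of 12.8 CPM. Fcgr1 was under its limit of 8.48 CPM over all Batf3-/- cells of C2, at 7.96 CPM. In DC-labelled cells it was under that limit in WT, at 4.93 CPM, and in Batf3-/-, at 2.97 CPM.

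The 1 of 10 members past 2-fold in C2 was Csf3r, at 18.2 CPM (15.4 to 21.4) in WT and 9.07 CPM (7.62 to 10.7) in Batf3-/-, a ratio of -1.01 (-1.35 to -0.66), beside 2.36% of genes. Here 3 WT cells with the neutrophil label held 26 of the 151 WT UMIs, and without them the ratio was -0.74 (-1.09 to -0.37), no longer past 2-fold. C11, the other cDC2b cluster, had no member past 2-fold over all its cells, beside 3.47% of genes. Its Fcgr4 ratio was -0.91 (-1.41 to -0.42), its Fcgr1 ratio -0.82 (-1.38 to -0.26) and its Fcgr2b ratio -0.41 (-0.69 to -0.13), the same side as in C2, while Fcgr3 was at -0.04 (-0.37 to 0.30). Monocyte-labelled cells were 26.1% of WT and 18.7% of Batf3-/- cells in C11. Within those cells the Fcgr4 ratio was -0.14 (-0.95 to 0.66), and within DC-labelled cells it was past 2-fold, at -1.11 (-1.81 to -0.42). The share of all genes past 2-fold within that label was not counted. The intervals of Fcgr1, Fcgr2b and Fcgr3 covered 0 within either label.

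Fcgr2b went the other way in C0, where it was 8.43 CPM (7.26 to 9.75) in WT and 14.5 CPM (12.9 to 16.2) in Batf3-/-, a ratio of 0.78 (0.51 to 1.05), and in C3, with a ratio of 0.42 (0.17 to 0.68). The WT level in C0 was under the free RNA limit. In C1 it was lower, at -0.53 (-0.99 to -0.07), beside Fcgrt at -0.64 (-1.0 to -0.28), and without doublets Fcgr2b was past 2-fold, at -1.13 (-1.69 to -0.55), beside 3.54% of genes. Its levels in C1, 12.7 CPM in WT and 8.75 CPM in Batf3-/-, were under the free RNA limit. So were those without doublets, 11.0 CPM in WT and 5.04 CPM in Batf3-/-. The 1 of 9 members past 2-fold in C1 was Fcgr3, with 1 UMI in WT and 35 in Batf3-/- and a ratio of 3.67 (1.09 to 9.01), or 2.99 (0.37 to 8.36) without doublets, beside 3.42% of genes. In C5 it was again Fcgr3, 1 of 9 members, on the other side, with 19 UMIs in WT and 13 in Batf3-/- and a ratio of -1.15 (-2.29 to -0.06), beside 2.28%. In C14 the 1 of 7 was Fcgr4, with 19 UMIs in WT and 5 in Batf3-/- and an interval that covered 0, beside 4.68%, and without doublets it had too few UMIs to be counted. Each of these 3 rested on under 40 UMIs, and the levels of Fcgr3 in C1 and C5 and of Fcgr4 in Batf3-/- C14 cells were under the free RNA limits.

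In the monocytes of C15, where 10 of 10 members had enough UMIs, none was past 2-fold, beside 8.18% of genes. Fcgr3 was somewhat higher in Batf3-/-, with a ratio of 0.50 (0.13 to 0.87), and the Fcgr2b share of the pair was 35.9% (30.3 to 41.9%) in WT and 24.2% (17.1 to 32.6%) in Batf3-/-. Without doublets the Fcgr3 ratio was 0.36 (-0.019 to 0.72), an interval that covered 0. Cells with Ly6c2 after thinning were 10.3% of the WT and 26.9% of the Batf3-/- cells of C15, and the part of this in the Fcgr3 value was not tested. Csf3r was lower, at -0.75 (-1.47 to -0.09), and without the 7 neutrophil-labelled cells the ratio was -0.38 (-1.14 to 0.32).

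Summed over all cells of a library, levels depend on which clusters the library holds. Csf1r was 31.7 CPM in WT and 54.6 CPM in Batf3-/-, a log2 ratio of 0.79 (0.73 to 0.84), 0.32 when the levels of both libraries were weighted by the WT composition and 0.23 by that of Batf3-/-. Fcer1g was 694 and 937 CPM, a ratio of 0.43 (0.42 to 0.45), and 0.07 at the WT and -0.12 at the Batf3-/- composition. Fcgrt was 56.6 and 36.3 CPM, a ratio of -0.64 (-0.70 to -0.58), and -0.62 at the WT but -0.23 at the Batf3-/- composition. The ratios of Csf1r and Fcer1g were thus nearer to 0 once the composition was held the same. Fcgr3, at 6.31 and 9.98 CPM, had a ratio of 0.66 as counted, 0.44 at the WT and 0.27 at the Batf3-/- composition, and Fcgr2b, at 40.3 and 34.7 CPM, had -0.22, -0.33 and -0.27. The ratios of Csf2ra and Csf2rb were -0.15 and 0.28 as counted, 0.08 and 0.45 at the WT composition and 0.06 and 0.17 at the Batf3-/- composition. The weights were shares of UMIs, and C4 held 34167872 of the 122530055 UMIs of WT. At the WT composition the Batf3-/- level of C4 thus weighs heavily. It rests on 31 cells, with 22 UMIs of Fcgrt and 73 of Csf2rb. No interval was made for the weighted ratios.

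Of the other genes of these pathways, 63 were in the tables and 49 had enough UMIs in C6, of which 5 were past 2-fold higher and 4 lower in Batf3-/- cells, beside the 8.36% of all genes in both directions together. Their median ratio was 0.17. Among chains with an ITAM and their kinases, 1 of 12 was past 2-fold: Fgr, a Src family kinase, was 19 CPM in WT and 66.9 CPM in Batf3-/-, a ratio of 1.82 (1.63 to 2.01). Tyrobp, the other ITAM adaptor of myeloid cells, was 577 CPM in WT and 892 CPM in Batf3-/-, a ratio of 0.63 (0.59 to 0.67). Of 8 inhibitory phosphatases and adaptors, 2 were higher, Ptpn6, which encodes SHP-1, at 122 CPM in WT and 266 CPM in Batf3-/-, a ratio of 1.13 (1.05 to 1.21), and Dok2, with 10 and 20 UMIs. Of 11 cytokine signaling genes 1 was higher, the feedback inhibitor Socs3, at 1.92 CPM in WT and 11.9 CPM in Batf3-/-, a ratio of 2.63 (2.06 to 3.25).

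Of the 9 transcription factors of myeloid receptors, Cebpa was higher, at 8.18 CPM in WT and 17.7 CPM in Batf3-/-, a ratio of 1.12 (0.80 to 1.44). Irf8, which cDC1 need, was lower, at 1895 CPM in WT and 941 CPM in Batf3-/-, a ratio of -1.01 (-1.04 to -0.98), and Batf3 itself was the other factor past 2-fold lower. Of 5 related receptors, Flt3, the receptor that drives dendritic cell development, was lower at 138 CPM in WT and 68.2 CPM in Batf3-/-, a ratio of -1.02 (-1.13 to -0.90). Of 4 other Fc-binding genes, Fcrla, an intracellular relative of the Fc receptors, was lower at 18.8 CPM in WT and 1.86 CPM in Batf3-/-, a ratio of -3.34 (-3.99 to -2.75). The growth factors themselves were scarce in the sorted cells. Csf1 reached 24.0 CPM in C12 and Csf2 4.81 CPM in C13, and Csf3 and Il34 stayed at or below 0.38 CPM in every cluster of at least 50 cells. 

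The most abundant genes of each list, which include partners of the receptors, had their highest levels in different clusters. Among related receptors Flt3 reached 309 CPM in C17, Kit, the stem cell factor receptor, 233 CPM in C16 and Il6st, the shared chain of the IL-6 family, 204 CPM in C9. B2m, the light chain that FcRn shares with MHC class I, reached 4399 CPM in C12, and the Fc receptors of IgE and IgM, Fcer2a and Fcmr, reached 288 CPM in C16 and 112 CPM in C16, with Fcrla at 102 CPM in C14. Tyrobp reached 3834 CPM in C14, and the Src family kinases Lyn and Fyn reached 332 CPM in C15 and 320.0 CPM in C14. The phosphatase genes Ptpn6 and Inpp5d, the partners of inhibitory receptors, reached 489.6 CPM in C3 and 338 CPM in C17, the adaptor gene Dok1 285 CPM in C12 and the kinase gene Csk 202 CPM in C0. In cytokine signaling Socs2 reached 662 CPM in C12, Jak2 561 CPM in C9, Jak1 374 CPM in C13 and Grb2 283 CPM in C8. Of the transcription factors, Irf8 reached 2974 CPM in C14, Nr4a1 1408 CPM in C8, Cebpb 1390 CPM in C15 and Klf4 905 CPM in C8.

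Fcgr2b, Fcgr3, Fcgr4 and Fcer1g lie together on chromosome 1, from 19.9 to 20.1 Mb away from Batf3, the disrupted gene (GRCm38, GENCODE M21). The other members lie on other chromosomes, Csf2ra on 19, Csf2rb on 15, Csf3r on 4, Fcgr1 on 3, Fcgrt on 7 and Csf1r on 18. In the stretch between the Fc receptor genes and Batf3, chr1:170958617-191108945, 16 of 142 genes with enough UMIs in C0 were past 2-fold between the libraries (11.3%), beside 271 of 11484 genes elsewhere (2.36%). In C6 it was 16 of 129 (12.4%), Fcer1g and Fcgr3 among them, beside 914 of 10993 (8.31%). Ifi204 and Ifi205, interferon-inducible genes of that stretch, were past 2-fold in both clusters. The part of this region in the values of the 4 receptor genes was not tested, and with mice from different suppliers it cannot be told apart from the loss of Batf3.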

How the data were processed

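Transcript counts of 2 libraries, 1 WT and 1 Batf3-/-, were analysed with the cluster, cell label and cell-cycle phase of each cell from the deposited metadata. Per the study's methods and the submitters' processing notes, the authors made the raw UMI counts with bcl2fastq 2.2.0 and Cell Ranger on the mouse build GRCm38 (mm10), filtered cells and clustered them with Seurat 3.0.5 at a resolution of 0.5. The deposited counts are whole UMIs per gene and cell, not normalized. The antibody tag and normalized tables were not used here.

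UMIs were summed per cluster and library and given per 1000000 (CPM) with exact Poisson 95% intervals. Ratios had exact intervals from the binomial split of the UMIs, and shares had Clopper-Pearson intervals, with Python 3.11.15, scipy 1.17.1, numpy 2.4.6 and pandas 2.3.3. Ratios needed 20 UMIs over both libraries and 20 cells in each, and a gene was called past 2-fold, with no test, since each genotype had 1 library. Shares of cells used cells thinned to 1000 UMIs, and likeness used log2(CPM + 1) over clusters of at least 100 cells, for genes that reach 20 CPM in any of them. Doublets were called with Scrublet in scanpy 1.11.5 at an expected rate of 0.1, and kept. The scripts were tested on simulated data. The text names all members, genes of fixed pathway lists past 2-fold in C6, the 4 genes of each list with the highest levels in any cluster of at least 50 cells, and the 3 genes most alike to each member. Some genes that this rule names are not reported here. The members and lists were chosen with earlier results of these data known. Alternatives covered the scaling, the count minimum, the fold, the phase, doublets, thinning and composition. Leaving out cells labelled neutrophils was added after seeing the data.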

Additional observations from a re-analysis of the deposited data

Results flagged for a closer look

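The ratios of 7 members lay on opposite sides of 0 in different clusters, with intervals that did not cover 0 in either, among the clusters with at least 50 cells in each library, which leaves out C4, C12 and C19 with C17 and C18. The values below are the difference between the highest and the lowest such log2 ratio of a gene in those clusters. The clusters were picked as the extremes, and the differences between clusters were not tested. The share of all genes that meet the same rule was not counted, so the count of 7 is not shown to be particular to these genes.

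Fcer1g was higher in Batf3-/- cells of C6 (log2 ratio 1.89) and lower in those of C14 (-0.32), a difference of 2.22, and its interval lay above 0 only in C19 (3.99, from 2 WT and 44 Batf3-/- UMIs) among the 15 clusters outside cDC1. Csf1r was higher in C6 (1.21), where no difference above free RNA is shown, and lower in C14 (-0.98, and -2.50 without doublets), a difference of 2.18. Csf2ra was higher in C7 (0.23) and lower in C14 (-0.59), a difference of 0.81, so 3 members had their lowest such ratio there in pDC. Without doublets the Csf2ra ratio in C14 was -0.61 (-1.45 to 0.19), an interval that covered 0.

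Fcgr2b was higher in C0 (0.78) and lower in C2 (-0.54), a difference of 1.32. Csf3r was higher in C0 (0.63) and lower in C2 (-1.01), a difference of 1.63, part of which sat in 3 WT cells of C2 labelled neutrophils, and its levels in C0 were under the free RNA limit. Fcgrt was higher in C3 (0.16) and lower in C6 (-0.88), a difference of 1.04, with lower ratios in the 31 Batf3-/- cells each of C4 (-1.05) and C12 (-2.77). Without doublets the Fcgrt ratio in C3 was 0.15 (-0.012 to 0.31), an interval that covered 0. Fcgr3 was higher in C1 (3.67, from 1 WT and 35 Batf3-/- UMIs) and lower in C5 (-1.15, from 19 and 13 UMIs), a difference of 4.82 that rested on few UMIs, with each of the levels under the free RNA limit.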

How the results depend on the processing

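No paired analysis was possible because each genotype had 1 library, and for the same reason no replicate could be left out. The cluster with the highest level of each of the 10 members was the same by mean CPM of single cells, without mitochondrial and ribosomal protein genes, without doublets, without neutrophil-labelled cells and in WT alone, and in Batf3-/- alone it was the same for 9 (Fcgrt moved from C4 to C3). By share of cells with a UMI it was the same for 9 at 2000 UMIs and for 8 without thinning. The count of members past 2-fold in C6, 3 as reported, was 5 with a minimum of 5 UMIs (beside 13.2% of all genes), 4 at a fold of 1.5 (17.5%) and 2 with a minimum of 50 UMIs (6.21%). In G1 cells alone (20.2%) it was also 2, Csf2rb (1.48, 0.57 as reported) and Fcgrt (-1.06, -0.88 as reported), and none of the 3 reported members was among them. The Fcer1g ratio in C6, 1.89 as reported, was 0.24 in G1 cells, of which 13 were WT, and 2.19 without doublets, and it lay between 1.85 and 1.96 under the other alternatives. The Fcgr2b share of the pair with Fcgr3 in C15, 32.3% over both libraries, was 24.2% in Batf3-/- alone. Of 394 recomputed values, 7 changed sign where the reported value was past its counting interval, 334 of the others moved by less than that interval and 53 by more. Of these others 22, with reported values whose intervals covered 0, also changed sign. In G1 cells of C6 the ratio of Csf2ra was -0.0018 and that of Fcgr3 -3.31. The latter rested on 3 WT and 4 Batf3-/- UMIs, under the minimum of 20. In S or G2M cells the ratio of Csf3r in C0 was -0.84, and in C2 those of Fcgr1, Fcgr3 and Fcgrt were 0.36, -0.90 and 0.11. The ratio of Fcer1g over the whole library was 0.07 at the WT and -0.12 at the Batf3-/- composition. The causes were not tested. Precision is limited by 1 library per genotype, by 31 Batf3-/- cells in C4 and C12, and by under 50 UMIs for Fcgr1, Fcgr3 and Fcgr4 in most clusters.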
